A study of Mus musculus with 8 samples.

Results

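Protein phosphatase genes of 4 families were followed in regulatory T cells (Tregs) from mouse spleen. The families are the dual specificity phosphatases (Dusp), the non-receptor and receptor tyrosine phosphatases (Ptpn and Ptpr) and the metal-dependent serine and threonine phosphatases (Ppm1). Members were taken by gene symbol, and 76 of the 21524 genes of the table matched: 25 Dusp, 17 Ptpn, 22 Ptpr and 12 Ppm1. The group was chosen by measured values in that the high normalised reads of Ptpn9 and Ppm1l in IL-2 libraries were already known, so both genes are given as values without a test, while all other members entered by symbol. One member, Ptprcap, is named for its association with CD45 and is not a phosphatase.

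RNA came from Tregs sorted by flow cytometry and was made into strand-specific total RNA libraries. The first group was 4 libraries labelled IL-2 (41 to 44), and the second was 4 libraries labelled Ctrl, here called control (45 to 48). The series as a whole concerns a modified IL-2 given with CTLA-4 Ig to C57BL/6 mice that carry a BALB/c heart or kidney graft. For these 8 libraries the labels gave neither the form or dose of IL-2 nor what the controls received. They also did not give strain, genotype, age, graft or the number of animals, so p-values measure only the spread between libraries, which may be technical.

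Phosphatases remove the phosphate groups that kinases add. The MAP kinase phosphatases among the Dusp genes switch off the kinases ERK, JNK and p38, and several of them are themselves induced by the signal they end. In T cells, the tyrosine phosphatase CD45, encoded by Ptprc, keeps the kinase Lck ready to act, whereas the products of Ptpn22, Ptpn6 and Ptpn2 restrain signals from the T cell receptor or from cytokine receptors. The Ppm1 enzymes work as single subunits on stress kinases, metabolic enzymes and other targets.

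Values are normalised reads, recovered from the variance-stabilised log2 values that the authors deposited. Depth was estimated at 4953547 to 6399418 reads in IL-2 libraries and 4970820 to 6147506 in control libraries. All 4 families were represented, but 15 members had 0 reads in every library: Dusp8, Dusp13, Dusp13a, Dusp15, Dusp21, Dusp26, Dusp29, Ptpn20, Ptprd, Ptprg, Ptprh, Ptprn2, Ptpro, Ptprq and Ptprr. A count of 0 allows up to 3 reads in a library, which is 2.75 to 3.48 normalised reads in IL-2 libraries and 2.72 to 3.36 in control libraries, counting error alone considered. A limma fit of the deposited values took in 35 members, those with at least 4 of the 8 libraries at least 1 unit above the lowest value, which is 206 normalised reads. The other 26 had some reads but fell under this filter.

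The sorted cells carried Treg and T cell transcripts. Foxp3, the lineage factor, had 1643, 2235, 1922 and 1731 normalised reads in IL-2 libraries and 1123, 1639, 1799 and 1587 in control libraries. The 7 measured Treg and T cell markers summed to 40404 to 45788 with IL-2 and 32545 to 33756 in controls. Limma called 1 of the 7 higher and 1 lower, and Foxp3 was not among the called ones. The IL-2 receptor gene Il2ra was higher, at 18107 ± 1601 with IL-2 and 6935 ± 781 in controls, and Cd4 lower, at 2523 ± 354 and 4136 ± 299.6 (SD, n = 4 each; limma adjusted p = 3.11e-07 and 1.49e-04). Marker lists of other cells summed to less than the Treg and T cell list in every library, and several of them differed between the groups. The 10 measured B cell markers summed to 127 to 245 normalised reads with IL-2, against 504 to 614 in controls. Of this, Cd74 gave 88.5 ± 40.1 with IL-2 and 396 ± 35.4 in controls (SD, n = 4 each), while Ms4a1 reached at most 2.73 reads in a library. The 11 markers of monocytes, macrophages and dendritic cells summed to 1026 to 1275 with IL-2 and 1853 to 2084 in controls, most of it Ctss, with Cd14 at 0 in all 8 libraries. Summed NK cell markers were 0 to 44.3 with IL-2 and 78.7 to 172 in controls. Neutrophil markers summed to at most 0.948 reads in a library, erythroid and platelet markers to at most 23.4 with IL-2 and 50.1 in controls, plasma cell markers to 495 to 597 with IL-2 and 272 to 372 in controls, with Xbp1 as the main gene, and the CD8 markers to 56.2 to 90.2 with IL-2 and 53.4 to 103 in controls. The part of other cells in the differences below was not tested. In bulk RNA, fewer cells of a type and less RNA per cell cannot be told apart.

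Levels of different genes were set side by side per kilobase of transcript, which 34 of the 35 members in the fit allowed. Ptprc was the most abundant, at 3671 ± 195 normalised reads per kilobase with IL-2 and 3680 ± 220.5 in controls (SD, n = 4 each). Ptprcap, whose product sits beside CD45 in the membrane of lymphocytes, came next with 2256 ± 104 per kilobase with IL-2 and 2196 ± 134 in controls. Ptpn6, the gene of the cytosolic phosphatase SHP-1, followed at 753 ± 67.3 per kilobase with IL-2 and 558 ± 45.1 in controls. In controls its neighbours Ptpn22, Ptpn7, Ppm1b and Ptpn18 lay within the spread between libraries. The order of the abundant genes was much alike in both groups, and the places of Ptpn9 and Ppm1l were not: per kilobase, Ptpn9 ranked 9 of 34 with IL-2 and 28 of 34 in controls, and Ppm1l 16 of 34 and 34 of 34.

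**Figure D1:**
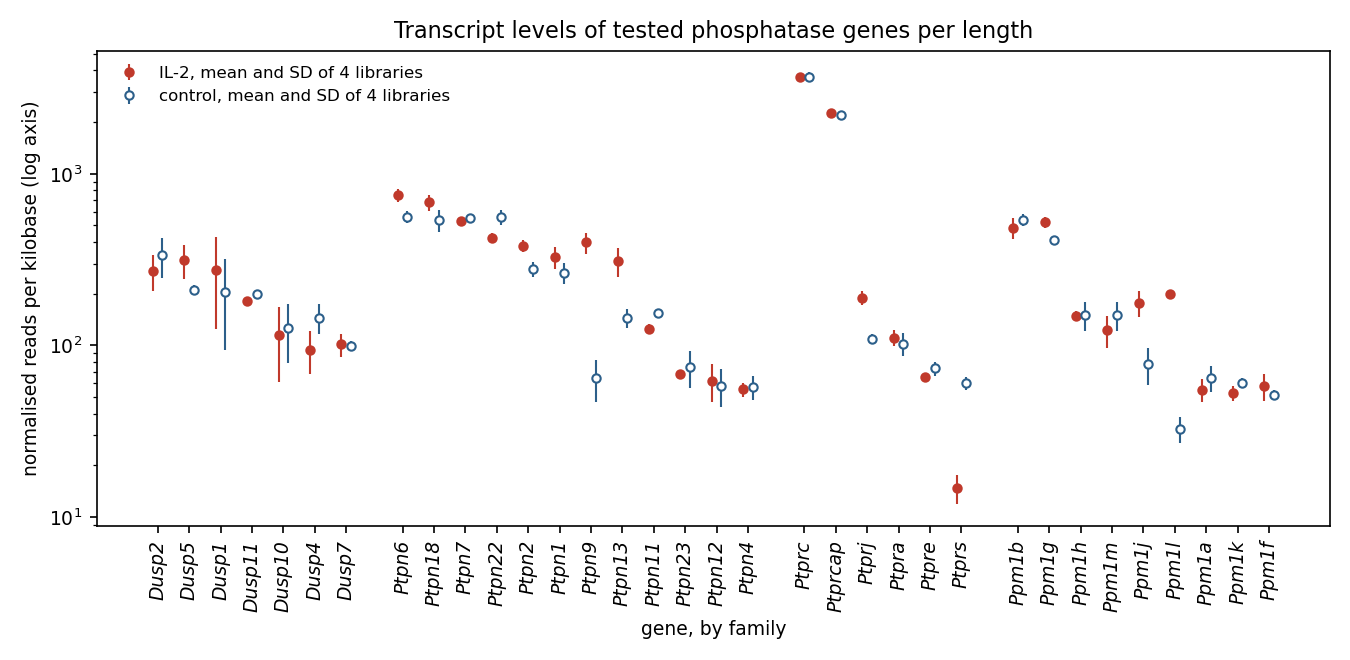
Normalised reads per kilobase (log axis) of the 34 members in the fit with a transcript length, by family, as mean and SD of 4 IL-2 (filled, left) and 4 control libraries (open, right). Ptprc and Ptprcap lie above all others in both groups, and Ptpn9, Ppm1l and Ptprs have the widest gaps between the groups.

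Ptpn9 and Ppm1l were left out of all counts of calls, which leaves 33 members. Of these, 12 passed the threshold in either direction, a limma adjusted p under 0.05, where 31.4% of all 5261 tested genes did. By direction, 8 were higher and 4 lower with IL-2, beside 16.8% and 14.6% of all tested genes. The higher ones were Ptpn13, Ptpn6, Ptpn2, Ptpn18, Ppm1j, Ppm1g, Ptprj and Dusp5, and the lower ones Ptprs, Ptpn22, Ptpn11 and Dusp4. Nothing is read from these counts, since the families were chosen with this contrast known. By family, 1 of 7 Dusp genes was higher and 1 lower, 4 of 11 Ptpn genes higher and 2 lower, 1 of 7 Ptpr genes higher and 1 lower, and 2 of 8 Ppm1 genes higher and 0 lower. The 6 Ppm1 genes that were not called had unadjusted 95% intervals that included no difference, and a fit of log2 normalised reads also called 0 lower. The median difference on the deposited log2 scale was -0.0031 over the 33 members and -0.01 over all tested genes. The 4 IL-2 libraries lay wholly above the 4 controls for 7 of the 33 and wholly below for 4, beside 16.7% and 14.7% of all tested genes. Ppm1j passed the filter through its IL-2 libraries alone and Ptprs through its control libraries alone, so both had to differ to enter this fit. Both are among the 12 calls and the groups that do not overlap, where the filter had set their separation beforehand. Their tests are given from the fit of log2 normalised reads, whose filter of 10 reads all 8 libraries passed for both genes.

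**Figure D2:**
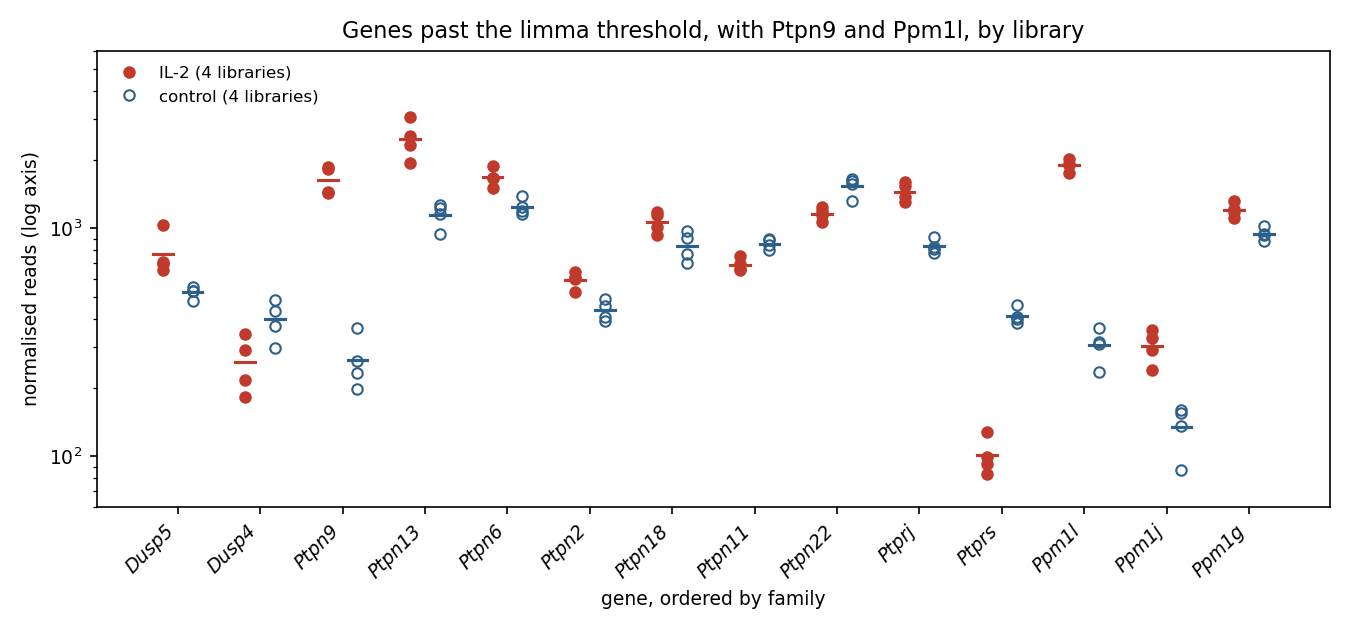
Normalised reads (log axis) in each library of the 12 members past the limma threshold and of Ptpn9 and Ppm1l, shown as a description, IL-2 filled and left, control open and right, with bars at the group means. The groups overlap for Dusp4 and Ptpn18 and are apart for the other 12 genes.

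Ptpn9 encodes MEG2, a tyrosine phosphatase with a lipid-binding domain that places it on secretory vesicles. Its normalised reads were 1849.6, 1441, 1815 and 1431 in IL-2 libraries and 261, 231, 198 and 364 in control libraries. The lowest IL-2 library was well above the highest control, and the ratio of means was 6.20. Ppm1l, whose product is a membrane-bound enzyme of the endoplasmic reticulum, had 1904, 1745, 2002 and 1888 normalised reads with IL-2, against 318, 365, 235 and 310.0 in controls. Its groups were likewise far apart, with a ratio of means of 6.14. The coefficient of variation of Ppm1l was 5.61% with IL-2 and 17.5% in controls, and that of Ptpn9 14.0% and 27.3%. On the deposited scale the differences were 1.41 for Ptpn9 and 1.48 for Ppm1l. These values chose the group of genes and are a description.

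Start-site windows of the members were searched on both strands for 3 motifs. RefSeq windows of build GRCm38.p6, 250 bases before to 50 after a gene's start, matched 60 of the 76 members with 80 windows. Ppm1l was among the members without a window and was not searched. The motifs were TTCNNNGAA, to which STAT factors such as the IL-2 transducer STAT5 can bind, the cyclic AMP response element TGACGTCA, and the CArG box of serum response factor. They were found in 6, 7 and 4 of the 80 windows, and in 8.30%, 1.79% and 1.63% of all 32851 windows of this length. TTCNNNGAA was found for Ptprj, Ptpn22, Ptprh, Ptpre, Ptpn23 and Dusp14. The cyclic AMP response element was found for Ptpru, Ptpn11, Dusp8, Ppm1d, Ppm1a, Dusp1 and Ptprs, and the CArG box for Ptprr, Ppm1b and Dusp5. The Ptpn9 window, shown because that gene had the largest ratio of means among the members in the fit, held none of the 3. It lies at chr9:56994718-56995017 on the plus strand and is printed 5′ to 3′ with no capitals because no motif was found.
Ptpn9: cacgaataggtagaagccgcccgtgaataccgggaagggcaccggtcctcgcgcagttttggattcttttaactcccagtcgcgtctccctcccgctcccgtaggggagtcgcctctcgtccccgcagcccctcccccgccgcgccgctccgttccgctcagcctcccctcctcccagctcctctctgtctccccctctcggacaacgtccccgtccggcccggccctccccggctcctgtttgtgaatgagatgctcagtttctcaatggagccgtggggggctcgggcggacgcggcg
No match says only that these letters are not in this window.

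Ptpn13 rose most among the other non-receptor tyrosine phosphatases. It encodes a large scaffold phosphatase with several PDZ domains and had 2313, 2535, 3069 and 1933 normalised reads with IL-2, against 1149, 945, 1226 and 1269 in controls. Every IL-2 library was above every control, and the mean was 2.15-fold that of controls. On the deposited scale the difference was 0.77 ± 0.10 SE (limma adjusted p = 8.78e-05). Ptpn6, whose product SHP-1 is recruited by inhibitory receptors, had 1506, 1656, 1653 and 1869 normalised reads with IL-2, against 1156, 1381, 1187 and 1232 in controls. Its groups did not overlap and its mean was 1.35-fold higher (0.29 ± 0.06 SE, limma adjusted p = 0.00288).

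Ptpn2 encodes TC-PTP, which removes phosphate from JAK kinases and STAT factors, among them STAT5. Its normalised reads were 599, 642, 527 and 613 with IL-2 and 393, 489.7, 408 and 456 in controls. It rose 1.36-fold with groups that did not overlap (0.22 ± 0.05 SE, limma adjusted p = 0.00894). Ptpn18, of the PEST-containing phosphatases, had 1138, 1177, 1008 and 933 normalised reads with IL-2, against 767, 969, 904 and 700.5 in controls. Its groups overlapped in part, and its 1.27-fold rise was near the threshold (limma adjusted p = 0.0366). Without IL-2 library 41, 42 or 43 or control library 45 or 48 it no longer passed (limma adjusted p from 0.0529 to 0.104), nor did it on log2 normalised reads (adjusted p = 0.0578) or without a filter (adjusted p = 0.0633).

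Ptpn22 and Ptpn11 fell. Ptpn22, which acts with the kinase Csk against Lck and other kinases of the T cell receptor, had 1192, 1147, 1236 and 1063 normalised reads with IL-2, against 1313, 1611, 1566 and 1635 in controls. Every IL-2 library lay below every control, and the mean was 1.32-fold below controls. On the deposited scale the difference was -0.27 ± 0.06 SE (limma adjusted p = 0.00509). Ptpn11 encodes SHP-2, the relative of SHP-1 that mostly promotes signalling to ERK, and had 652, 755, 662 and 698 normalised reads with IL-2, against 896, 801, 883 and 841 in controls. The mean was 1.24-fold lower with no overlap (-0.17 ± 0.05 SE, limma adjusted p = 0.0195). That call was lost without IL-2 library 41 or 43 or control library 45 or 47 (limma adjusted p from 0.0513 to 0.0532).

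The remaining tested Ptpn genes did not pass. Ptpn1, the gene of PTP1B, which acts on the insulin receptor and JAK kinases, had 1534, 1435, 1450.2 and 1079.8 normalised reads with IL-2, against 1078, 921, 1190.2 and 1275 in controls. Library 44 was low among the IL-2 libraries, where it fell within the control range. The difference was 0.20 (unadjusted 95% interval 0.02 to 0.37, limma adjusted p = 0.0891), and without library 44 it was 0.27 and passed (adjusted p = 0.0129). Ptpn7, which encodes the ERK- and p38-binding phosphatase HePTP, did not pass at 1739.7 ± 85.2 with IL-2 and 1792 ± 35.5 in controls, with an unadjusted 95% interval of -0.14 to 0.07 on the deposited scale. Ptpn4, Ptpn12 and Ptpn23 had differences of -0.02, 0.03 and -0.04.

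**Figure D3:**
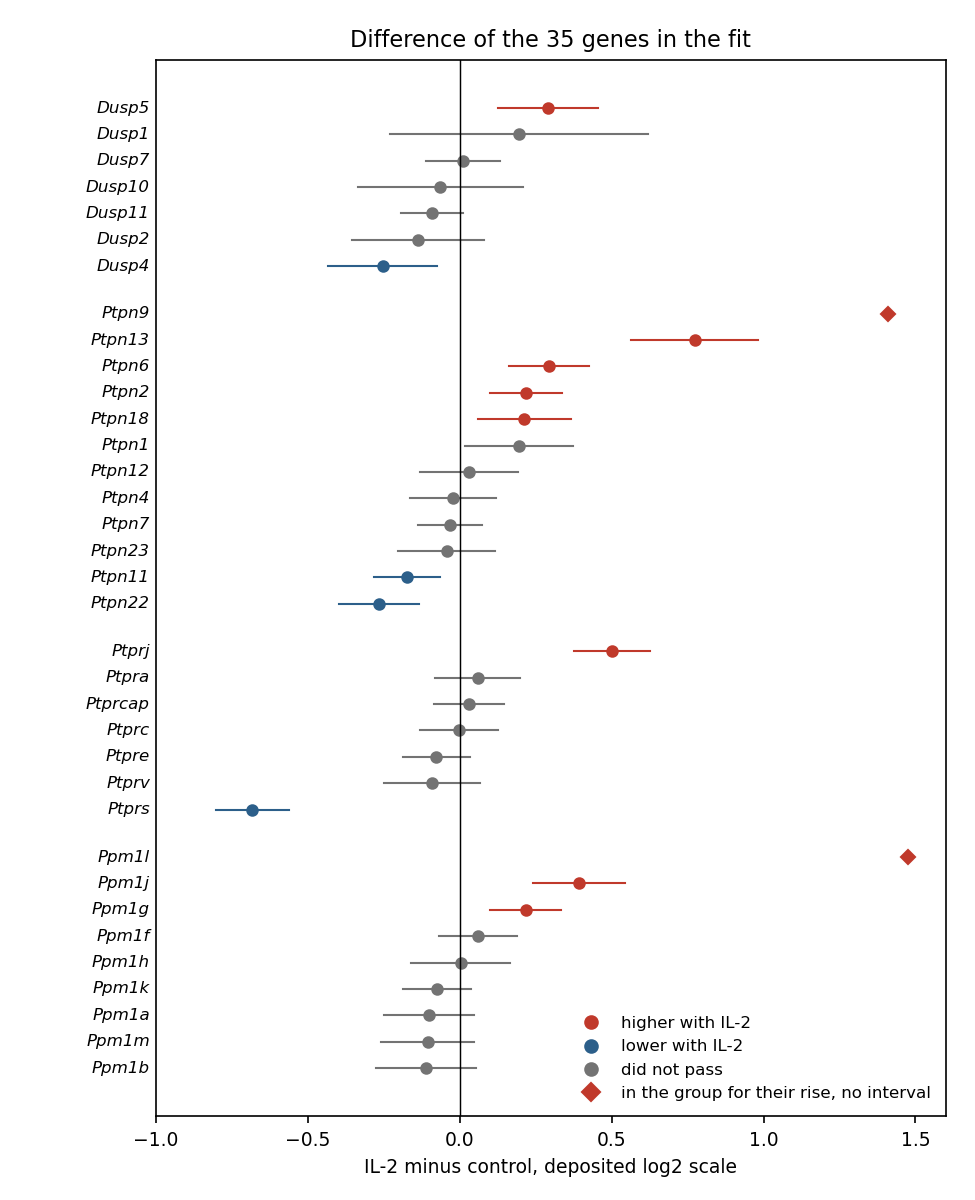
Difference, IL-2 minus control, on the deposited log2 scale for the 35 members in the fit by family, with unadjusted 95% intervals from limma. Ptpn9 (1.41) and Ppm1l (1.48) are drawn as diamonds without an interval, Ptpn13 (0.77) is the next highest and Ptprs (-0.68) the lowest. Ppm1j and Ptprs had to differ to enter this fit, so their intervals here are a description.

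Among the receptor type genes Ptprj rose and Ptprs fell, while Ptprc did not pass. Ptprj encodes CD148, a receptor phosphatase that acts on Src family kinases, and had 1305, 1369, 1589 and 1528 normalised reads with IL-2, against 813, 781, 916 and 829 in controls. The groups were well apart, with a mean 1.73-fold that of controls (0.50 ± 0.06 SE on the deposited scale, limma adjusted p = 5.1e-05). Ptprs encodes a receptor phosphatase that binds proteoglycans, and its normalised reads were 92.5, 83.7, 128 and 99.5 with IL-2 and 384, 461, 406 and 398 in controls. Even the highest IL-2 library was far below the lowest control, and the mean was 4.08-fold lower. On log2 normalised reads the difference was -2.03 ± 0.16 SE (limma adjusted p = 1.41e-05).

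Ptprs is also known as a gene of plasmacytoid dendritic cells. A list of 6 genes of those cells, chosen after the values were seen, summed to 215 to 249 normalised reads with IL-2, against 369 to 488 in controls. Their defining gene Siglech was at 0 in all 8 libraries. Tcf4, a transcription factor of those cells, had 38.5, 10.2, 26.2 and 30.3 normalised reads with IL-2, against 88.4, 73.7, 117 and 78.6 in controls. Most of the sum came from other genes of the list. The fit of log2 normalised reads took in 4 of the 6 genes, of which 3 were lower with IL-2 and 0 higher. Of all genes in that fit, 8.78% were lower and 10.6% higher. The control libraries were the higher ones for Tcf4 as for Ptprs, and also for the summed B cell markers, while the summed plasma cell markers were higher with IL-2. The part of plasmacytoid dendritic cells or of other cells in the difference was not tested. The one of its start-site windows with a cyclic AMP response element, in capitals, is shown because this was the member of the fit with the largest fall. It lies at chr17:56476431-56476730 on the minus strand of GRCm38.p6, and the element begins 5 bases after the start.
Ptprs: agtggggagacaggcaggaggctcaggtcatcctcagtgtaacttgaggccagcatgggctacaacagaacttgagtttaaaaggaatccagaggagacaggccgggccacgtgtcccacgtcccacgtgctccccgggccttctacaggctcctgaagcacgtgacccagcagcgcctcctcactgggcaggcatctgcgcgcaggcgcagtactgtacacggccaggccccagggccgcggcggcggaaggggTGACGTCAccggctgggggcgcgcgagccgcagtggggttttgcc
A match is a description of letters, and binding was not measured.

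Ptprc had 15935, 17689, 17418 and 18009.9 normalised reads with IL-2, against 17370.2, 16716, 18737 and 16399 in controls. The ranges lay over each other, with a difference of -0.00308 (unadjusted 95% interval -0.13 to 0.13, limma adjusted p = 0.977). After quantile normalization the difference was -0.15 and passed (limma adjusted p = 0.0121), which it did in no other setting. With median centring it was -0.02 and did not pass (limma adjusted p = 0.86). Gene-level values do not separate the CD45 isoforms. Ptprcap averaged 2092 ± 96.5 with IL-2 and 2036 ± 124 in controls (adjusted p = 0.715 by limma). Ptpra and Ptpre, close relatives that act on Src family kinases, had differences of 0.06 and -0.08 and did not pass, and Ptprv had -0.09.

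The MAP kinase phosphatases are ordered by the kinases they act on. Of the nuclear, inducible ones, Dusp5, an ERK phosphatase, had 659, 1033, 707 and 697 normalised reads with IL-2, against 528, 482, 554 and 528 in controls. All IL-2 libraries lay above the controls and library 42 above the rest, with a mean 1.48-fold that of controls. On the deposited scale the difference was 0.29 ± 0.08 SE (limma adjusted p = 0.0115). Without library 42 the difference was 0.20 and still passed (adjusted p = 0.0128). Dusp4, which acts on ERK and JNK, had 183, 345, 293 and 217 normalised reads with IL-2, against 299, 374, 435 and 485 in controls. Its groups overlapped at 1 control library, and the mean was 1.54-fold lower (-0.25 ± 0.08 SE, limma adjusted p = 0.0351). The fall did not hold without IL-2 library 41 or 44 or control library 46, 47 or 48 (limma adjusted p from 0.0571 to 0.0993), on log2 normalised reads (adjusted p = 0.0562) or without a filter (adjusted p = 0.0666).

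Dusp1 and Dusp10 varied more within the groups than between them. Dusp1, an early induced phosphatase of p38, JNK and ERK, had 275, 887, 722 and 319 normalised reads with IL-2, against 190.2, 244, 595 and 611 in controls. Dusp10, of the JNK and p38 type, had 204, 536, 284 and 256 with IL-2 and 226, 264, 508 and 414 in controls. Libraries 42, 43, 47 and 48 were the 4 highest for both genes, and both groups held high and low libraries. The coefficients of variation were 54.7% with IL-2 and 54.6% in controls for Dusp1, and 46.2% and 37.3% for Dusp10. The differences were 0.19 for Dusp1 (unadjusted 95% interval -0.23 to 0.62, limma adjusted p = 0.488) and -0.06 for Dusp10 (-0.34 to 0.21, adjusted p = 0.742).

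A list of 8 immediate early genes was looked at after the Dusp1 values were seen. The same 4 libraries were the highest for Jun, Junb, Zfp36 and Nr4a1. For Fos, Fosb, Ier2 and Egr1 the 4 highest libraries were another set, as they were for Dusp2, Dusp4 and Dusp5. Junb, a subunit of the AP-1 transcription factor, had 1180.4, 3309.8, 2295 and 1297 normalised reads with IL-2, against 1030.3, 1371, 2510.5 and 2208 in controls. Of the other 4 genes of that list, Fos and Ier2 were higher with IL-2 and Egr1 lower (limma adjusted p = 0.00669, 0.027 and 0.00808). Fosb had too few libraries past the filter of that fit, and was higher in the fit of log2 normalised reads (limma adjusted p = 0.00254). What sets the libraries apart was not tested.

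**Figure D4:**
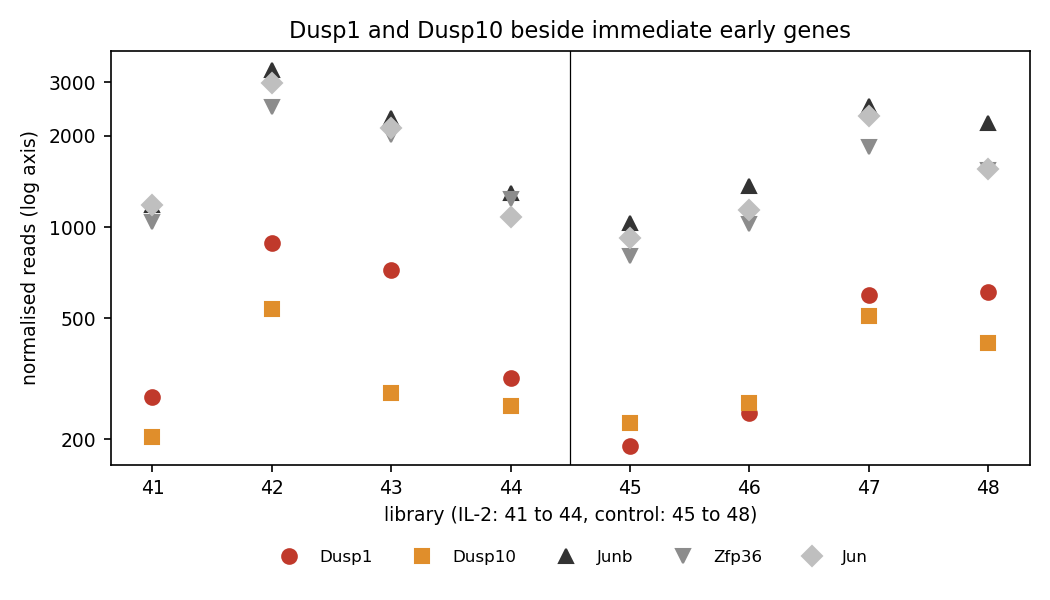
Normalised reads (log axis) of Dusp1, Dusp10, Junb, Zfp36 and Jun in each library, IL-2 libraries 41 to 44 left of the line and control libraries 45 to 48 right of it. Each gene drawn is highest in libraries 42, 43, 47 and 48, 2 of each group, which Fos, Fosb, Ier2 and Egr1, not drawn, are not.

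The windows of Dusp5 and Dusp1 are shown because they hold motifs of early induced genes. The Dusp5 window, chr19:53528895-53529194 on the plus strand of GRCm38.p6, has 2 CArG boxes side by side, in capitals, that begin 82 and 72 bases before the start. The Dusp1 window, chr17:26508423-26508722 on the minus strand, has 1 cyclic AMP response element, in capitals, that begins 143 bases before the start.
Dusp5: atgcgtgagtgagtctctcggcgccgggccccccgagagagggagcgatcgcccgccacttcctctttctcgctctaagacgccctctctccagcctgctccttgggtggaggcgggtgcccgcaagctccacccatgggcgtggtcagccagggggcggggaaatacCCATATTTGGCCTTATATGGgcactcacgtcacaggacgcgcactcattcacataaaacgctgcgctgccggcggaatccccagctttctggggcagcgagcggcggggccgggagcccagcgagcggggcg
Dusp1: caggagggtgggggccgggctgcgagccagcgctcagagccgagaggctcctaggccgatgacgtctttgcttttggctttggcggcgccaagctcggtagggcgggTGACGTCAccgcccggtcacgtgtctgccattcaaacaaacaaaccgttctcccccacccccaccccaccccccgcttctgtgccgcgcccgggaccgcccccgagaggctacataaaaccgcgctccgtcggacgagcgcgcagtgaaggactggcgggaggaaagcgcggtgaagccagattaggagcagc

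Dusp2, another nuclear phosphatase of activated T cells, had 533, 528, 365 and 336 normalised reads with IL-2, against 337, 612, 649 and 565 in controls, and did not pass (limma adjusted p = 0.326). The cytoplasmic ERK phosphatase genes are Dusp6, Dusp7 and Dusp9. Dusp7 did not pass, at 326 ± 49.7 with IL-2 and 319.8 ± 22.6 in controls (SD, n = 4 each). Dusp9 had at most 9.51 normalised reads in a library. Dusp11, whose product removes phosphate from RNA ends rather than from MAP kinases, had 1166, 1178, 1181 and 1147 normalised reads with IL-2, against 1248, 1349, 1329 and 1223 in controls. Its groups did not overlap, but the difference of -0.09 was small and did not pass (unadjusted 95% interval -0.19 to 0.01, limma adjusted p = 0.166).

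A second limma fit, on log2 normalised reads, took in 10777 genes with at least 10 normalised reads in 4 libraries, 45 of them members. Without Ptpn9 and Ppm1l these are 43 members, of which it called 12, beside 19.4% of its genes. These were 8 higher and 4 lower, where 10.6% of its genes were higher and 8.78% lower. Dusp6 and Dusp16 entered the calls, in place of Ptpn18 and Dusp4. Dusp6 had 199, 185, 184 and 224 normalised reads with IL-2, against 105, 108, 155 and 138 in controls. It was higher in 4 of 4 IL-2 libraries, 1.57-fold in the mean (limma adjusted p = 0.0253). Dusp16, a JNK and p38 phosphatase, had 34.3, 37.2, 42.9 and 29.7 normalised reads with IL-2, against 117, 65.2, 111 and 83.6 in controls. It was 2.62-fold lower, with no overlap (-1.34 ± 0.29 SE on log2 normalised reads, limma adjusted p = 0.00713). Dusp5 was also higher in this fit (limma adjusted p = 0.0166).

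Other weakly expressed members gave no call. Dusp3, an atypical phosphatase of ERK and JNK, had 32.0, 31.8, 54.2 and 158 normalised reads with IL-2, against 12.3, 15.1, 26.3 and 17.3 in controls. The groups did not overlap, library 44 was far above the other IL-2 libraries, and the adjusted p was 0.0521 in the second limma fit. Ptpn3, a FERM and PDZ domain phosphatase, had 20.6 ± 10.9 with IL-2 and 45.1 ± 11.9 in controls (SD, n = 4 each; adjusted p = 0.0856, limma). The other members of that fit outside the first were Dusp12, Dusp22, Dusp28, Ppm1d, Ptpn5 and Ptpn21, with adjusted p from 0.148 to 0.941. A further 16 members had reads in some library but too few for either fit, at most 33.4 in any library. One of these, Ptprf, had reads of 0.949, 0, 0 and 0 with IL-2 and 28.2, 0, 33.4 and 8.95 in controls.

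The Ppm1 family gave rises of Ppm1j and Ppm1g besides the higher level of Ppm1l. Ppm1j had 330.0, 238, 357 and 291 normalised reads with IL-2, against 159, 86.6, 135 and 155 in controls. The groups were apart, with a mean 2.27-fold that of controls (log2 normalised reads 1.20 ± 0.22 SE higher, limma adjusted p = 0.00262). Ppm1g, a nuclear enzyme linked to RNA splicing, had 1212, 1317, 1173 and 1109 normalised reads with IL-2, against 933, 943, 877 and 1027 in controls. It rose 1.27-fold, again with no overlap (0.22 ± 0.05 SE on the deposited scale, limma adjusted p = 0.00865).

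Most other Ppm1 genes were within the spread between libraries. Ppm1b, which acts on stress kinases, had 1788, 1732, 1285 and 1648 normalised reads with IL-2, against 1852, 1906, 1573 and 1831 in controls (difference -0.11, limma adjusted p = 0.291). Ppm1h, which removes phosphate from Rab GTPases, averaged 950.5 ± 66.6 with IL-2 and 955 ± 183 in controls. Ppm1a, Ppm1k, the mitochondrial enzyme that switches on branched-chain keto acid breakdown, and Ppm1m had differences of -0.10, -0.08 and -0.11. Ppm1f was at 0.06, and none of these passed. Ppm1d, the p53-induced phosphatase WIP1, had 170.4 ± 26.7 with IL-2 and 209 ± 21.5 in controls (adjusted p = 0.235, second limma fit).

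Genes around these families were read from lists drawn up by function. In limma 16.8% of all tested genes were higher and 14.6% lower, at an unadjusted p under 0.05 21.3% and 20.4%, and in the second fit 10.6% and 8.78%, and with lists this short the counts are a description. Of the MAP kinases, 7 of 14 were tested by limma, and 0 rose and 2 fell. At an unadjusted p under 0.05 the counts were also 0 and 2, and in the second fit, which took in 10 of them, 0 and 1. Nlk, a distant relative of the MAP kinases, had 353, 341, 294 and 221 normalised reads with IL-2, against 534, 519, 583 and 544 in controls (adjusted p = 5.75e-04 by limma), and Mapk9, which encodes a JNK, was 1.32-fold lower (limma adjusted p = 0.0453) but did not pass in the second fit (adjusted p = 0.0663). Of the MAP kinase kinases, 5 of 7 were tested and 0 passed in either direction in limma, with a lowest adjusted p of 0.0973, that of Map2k5. At an unadjusted p under 0.05, 0 were higher and 1 lower, and the second fit called 0 of 7.

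Phosphatases outside the 4 families were counted against the same shares, 16.8% higher and 14.6% lower in limma. Among other cysteine-based phosphatases and their relatives, 14 of 32 were tested, 2 rose and 2 fell, which is near those shares. Tns1, a tensin of focal adhesions, had 506 ± 74.3 normalised reads with IL-2, against 271 ± 61.2 in controls, and Ptp4a3, the phosphatase PRL-3, 519.8 ± 57.7 and 347 ± 16.6. Ptp4a2, its close relative, and Cdc14a were 1.27-fold and 1.43-fold lower (SD, n = 4 each; for the 4 genes in this order, limma adjusted p = 0.00157, 0.00265, 9.6e-04 and 0.0319). Of the PPP-type catalytic subunits, 10 of 13 were tested, 2 rose and 0 fell, in limma as in the second fit, and at an unadjusted p under 0.05 the counts were 3 and 3, beside 21.3% and 20.4% of all tested genes. The called ones were Ppp3ca, a catalytic subunit of the NFAT phosphatase calcineurin, with 677 ± 62.2 with IL-2 and 460.0 ± 25.0 in controls, and Ppp1ca, 1.24-fold higher (limma adjusted p = 0.00163 and 0.0202). Of the other PP2C-type genes, 2 of 7 were tested, 0 rose, also at an unadjusted p under 0.05 and in the second fit, and Phlpp1, which dephosphorylates AKT, was lower, at 399 ± 83.7 with IL-2 and 638 ± 61.2 in controls (SD, n = 4 each; limma adjusted p = 0.00285). Median differences of the 5 lists ran from -0.20 over the 2 PP2C-type genes to 0.03 over the PPP-type subunits, beside -0.01 over all tested genes.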

How the data were processed

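The deposited table holds variance-stabilised values on a log2 scale, made by the authors with a DESeq2 transformation, 1 column per library. Per the submitters' processing notes, Salmon, DESeq2 and the GRCm39 build were used; annotation and filters were not stated there. Columns were matched to labels by library number. The inverse of the transformation depends only on the lowest value, 8.69, and gave normalised reads: of the 5 commonest low values per library, the 4 above the smallest were whole multiples of it within 0.001 (32 of 32), and the geometric mean over library size factors was 1.000. Most genes did not give whole reads, which left no count test to run. The scale is compressed: 1 unit above the lowest is 206 reads and 2 units 928, and differences understate folds, those of weak genes most. Ptpn13, a well expressed gene, differed by 0.77 on this scale and by 1.09 on log2 normalised reads. Differences given without a scale are on the deposited one. Folds are ratios of mean normalised reads. Salmon shares reads among near-identical transcripts by estimation.

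Values of all 5261 genes past the filter (at least 4 libraries at least 1 above the lowest) were fitted with limma 3.58.1 in R 4.3.3 (eBayes with trend, no covariate), IL-2 minus control, with Benjamini-Hochberg adjustment at 0.05; the step was tested on simulated data. Lengths are of the longest APPRIS principal transcript in GENCODE M21. Python 3.11.15, pandas 2.3.3 and matplotlib 3.10.9 were used. Members and lists were chosen with earlier results of these data known. Named were Ptpn9, Ppm1l, all members past the threshold, the 3 most abundant of each family, and 2 genes per direction of each list; others were named after their values were seen. Alternatives were other filters, quantile normalization, median centring, limma without trend, robust or with library weights, log2(normalised reads + 1), and leaving out each library.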

Additional observations from a re-analysis of the deposited data

Results flagged for a closer look

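Within a group of 4 libraries, 1 library stood far from the other 3 in 3 of the 90 groups checked (a gap to the nearest library past Dixon's 95% critical value, which chance gives in about 1 of 20 groups). IL-2 library 42 had 1033 normalised reads of Dusp5, against 659 to 707 in the other 3 IL-2 libraries, and 400.7 of Dusp7, against 298 to 306. Control library 47 had 622 of Ppm1a, against 434 to 461 in the other 3 controls.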

How the results depend on the processing

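Counts of higher members leave out Ptpn9 and Ppm1l, chosen for their rise. With the stricter filter of 2 units above the lowest value, 15 members were fitted, Ptpn9 and Ppm1l among them. Without both, 5 were higher and 1 lower, where 8 and 4 were with the usual filter. Over all genes, 380 were higher and 357 lower with the stricter filter, and 883 and 767 with the usual one. The filters fitted different numbers of genes, so these counts are not shares and nothing is read from them. Dusp4, Dusp5, Ppm1j, Ptpn11, Ptpn2 and Ptprs were not tested with the stricter filter. Leaving out 1 library gave 7 to 9 members higher and 2 to 4 lower. Of all 5261 tested genes, 757 to 828 were then higher and 621 to 707 lower. The count of 2 members came without IL-2 library 41 and without control library 47, where Dusp4 and Ptpn11 were lost. All other settings gave 8 members higher and 4 or 5 lower, beside 801 to 1147 higher and 762 to 968 lower over all genes. Some of those settings also fitted other numbers of genes, such as 10777 on log2 normalised reads against 5261 in the main fit. For the 18 other members named by rule, 260 of 281 alternative values kept direction and side of the threshold. Ptprc ranged from -0.0272 to 0.0341 when 1 library was left out, with its sign reversed without IL-2 library 41 (0.0332) and without control library 47 (0.0341), neither past the threshold. The losses of Dusp4, Ptpn11 and Ptpn18 and the quantile-normalised Ptprc stand beside those genes; the cause was not tested. Members under about 206 reads, among them Dusp6 and Dusp16, could not be judged by the first fit, and a 0 sets only an upper limit. No paired analysis was possible because the library numbers of the groups do not match.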
